A study of Drosophila melanogaster with 4 samples.

Results

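Long stretches of the larval genome carried no called region of ubiquitinated histone H2B, and the 454 stretches of at least 50 kb are described here. Each is a gap on 2L, 3L, 2R, 3R or X, the 5 major arms, running from the base after the end of one enriched region to the base before the start of the next, in the list that the authors combined from both replicates. Arm ends were left out. The gaps were chosen by this measured length alone, so their lengths are given as a description, and no test was made on them. They were 454 of 5456 gaps of any length in the combined list (8.32%). The remaining gaps, set beside them where a comparison helps, were 982 of 10 to under 50 kb and 4020 under 10 kb.

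The material was whole larvae of the third instar, from the Drosophila melanogaster strain Oregon-R, which is wild type, and the labels name no treatment. Formaldehyde-fixed chromatin was immunoprecipitated with the mouse monoclonal antibody NRO3, raised to the junction of ubiquitin with human H2B, in 2 ChIP samples (replicates 1 and 2). The 2 input samples of unselected chromatin were not analysed here. Whether separate batches of larvae gave the replicates is not in the labels, and their spread may be purely technical. The 3 lists held 5464 regions (combined), 5036 (replicate 1) and 5031 (replicate 2) on the major arms, which covered 29.4%, 24.4% and 25.7% of the bases. Read depth is unknown, because the lists give positions and 1 score per region but no counts. All positions refer to release 5 of the FlyBase genome, which the file headers name.

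Ubiquitin is attached to histone H2B by the ligase Bre1, working with a Rad6-type conjugating enzyme that travels with RNA polymerase II, and it is removed again by deubiquitinases. The mark is therefore known as one that lies over the bodies of genes while they are transcribed. In Drosophila, long domains that lack marks of transcription are known as a large silent chromatin type, rich in linker histone and in genes used in few tissues, beside domains held by Polycomb proteins. Whole larvae mix many tissues, so a gap says only that no region was called over that mixture. A mark carried by few cells cannot be told apart from no mark. Sequence in which reads cannot be placed was not measured and would also appear as a gap. No gene was assigned to a gap, since the gene annotation used here is not of release 5.

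The long gaps held a large share of the genome in few pieces. They added up to 51.6 Mb, which is 43.3% of the major arms and 61.7% of all bases that lie in gaps. The median long gap was 88.1 kb, with the middle 50% between 62.2 and 140 kb, while the median over all gaps was 2.55 kb. In the replicate lists, gaps found in the same way numbered 494 in replicate 1 and 479 in replicate 2, or 487 ± 10.6 (SD, n = 2). They held 57.7 Mb in replicate 1 and 55.8 Mb in replicate 2, or 47.7% ± 1.12 of the arms (SD, n = 2). Both replicates thus had slightly more and longer gaps than the combined list, which holds more regions.

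By length, the gaps were mostly short members of the class, but their bases lay mostly in the long ones. In the combined list 176 gaps were of 50 to under 75 kb, 81 of 75 to under 100 kb and 93 of 100 to under 150 kb. A further 56 were of 150 to under 200 kb, 33 of 200 to under 300 kb and 15 of 300 kb or more. The 176 shortest made up 38.8% of the gaps and 20.5% of their bases, and the 15 longest 3.30% of the gaps and 10.5% of their bases. The longest 127 gaps were enough to hold 50% of the bases. Each replicate also had 15 gaps of 300 to under 500 kb. Its longest gap lay above that class, at 504 kb in replicate 1 and 501 kb in replicate 2. The limit of 50 kb did not fall at a break in the distribution. The 3 gaps just inside it were 50.1 kb at 3777257 to 3827331 on X, 50.2 kb at 10972089 to 11022323 on 3R and 50.4 kb at 15520151 to 15570525 on X. The 3 just outside were 49.99 kb at 7833467 to 7883459 on 2L, 49.96 kb at 7648265 to 7698227 on 3L and 49.96 kb at 3749941 to 3799897 on 3R, and all 3 of these were over 50 kb in both replicates.

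**Figure D1:**
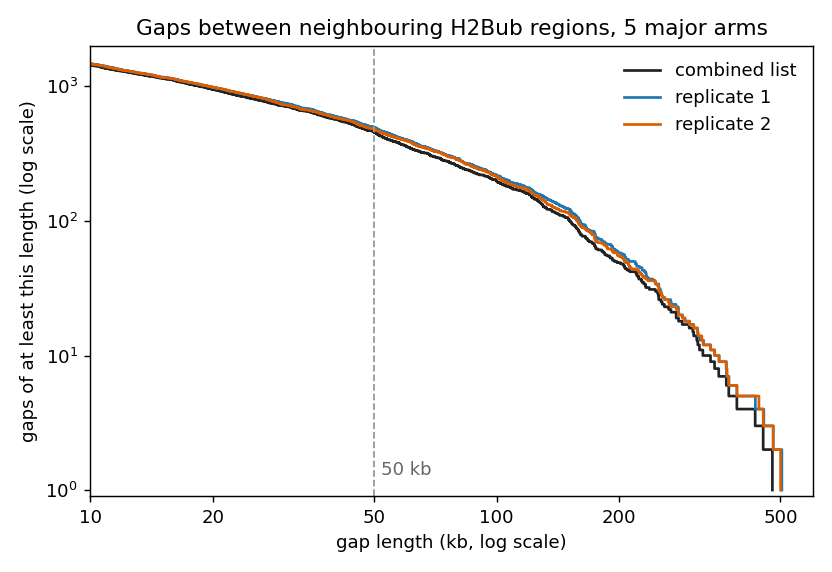
Number of gaps of at least a given length (vertical, log scale) against gap length in kb (horizontal, log scale) on the 5 major arms, for the combined list and each replicate, with the 50 kb limit as a dashed line. The 3 curves run close together and pass the limit at 454, 494 and 479 gaps without a step.

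The 10 longest gaps lay on 2L, 3L, 3R and X. The longest, at 15768173 to 16246095 on 2L, spanned 478 kb, and the stretch was 480 kb in both replicates. A second lay on the same arm at 16917025 to 17370653, and spanned 454 kb (combined list), 455 kb (replicate 1) and 454 kb (replicate 2). On 3L the longest were at 18178831 to 18612323 (433 kb), 13509515 to 13900253 (391 kb) and 23334391 to 23707617 (373 kb). X held 3 of the 10, at 20532807 to 20900811 (368 kb), 21501723 to 21846055 (344 kb) and 14152065 to 14474273 (322 kb). The 2 on 3R were at 23792923 to 24145461 (353 kb) and 1833561 to 2170067 (337 kb). The longest on 2R, at 15721549 to 15998373, was 277 kb and not among the 10.

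These 10 stretches had nearly the same length in the replicates. Replicate 1 gave 434, 391 and 373 kb for the 3 on 3L, and replicate 2 gave 443, 391 and 373 kb. At the gap of 443 kb in replicate 2, the right-hand bordering region, 1.83 kb wide with a score of 0.369, was called in replicate 1 and not in replicate 2. For the 3 on X the stretches were 368, 345 and 324 kb in replicate 1 and 368, 344 and 323 kb in replicate 2. For the 2 on 3R they were 353 and 337 kb in replicate 1 and 354 and 337 kb in replicate 2. None of the 10 held a region lying wholly inside it in either replicate. The sole overlap was 82 bp of a replicate 1 region at the left edge of the gap at 13509515 on 3L.

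The arms differed in how much of them lay in long gaps, with 2L highest and 2R lowest in all 3 lists. On 2L, 98 gaps held 49.0% of the combined list's arm bases, 53.1% in replicate 1 and 52.6% in replicate 2. On 2R, 67 gaps held 33.4%, against 40.3% in replicate 1 and 37.6% in replicate 2. X had 91 gaps and 46.0% of its bases in them (51.3% and 49.3% in replicates 1 and 2), 3R 107 gaps and 44.3% (49.4% and 48.2%), and 3L 91 gaps and 42.9% (47.6% and 45.9%). The order 2L, X, 3R, 3L and 2R was the same within each of the 3 lists. Across the replicates, the values of X and 3R overlapped, and those of the other neighbours in this order did not. With 2 replicates, nothing is read from this. The median gap length varied less, between 83.4 kb on 3L and 97.2 kb on 3R in the combined list. The replicates placed the extremes elsewhere. Replicate 1 ran from 86.1 kb on 2R to 98.4 kb on 2L, and replicate 2 from 86.1 kb on 3L to 98.3 kb on 2L. These differences between arms were not tested, because the arms are not samples and the replicates number 2.

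Along the arms the share of bases in long gaps varied, and 3L and X had their highest share next to the centromere. Each arm was cut into 10 equal parts from the centromere end of its sequence. In the part next to the centromere, over the 5 arms together, 60.8% of bases lay in long gaps (65.2% in replicate 1 and 63.0% in replicate 2), and the median of the 48 gaps centred there was 128 kb. In the part at the far end of the arm, 35.4% of bases did (41.1% and 38.7% in the replicates), and the median was 79.5 kb. The rule leaves out arm ends, and in the combined list 176 kb at the far end of 2R and 129 kb at that of 3L had no region. These bases are not counted in the far-end share, whereas no centromere end was longer than 47.7 kb. The second part from the centromere was at 35.5%. With 5 parts per arm, the part next to the centromere had 48.1% of its bases in long gaps and the next one 48.5%. The centromere part was at 77.6% on 3L and on X and at 56.8% on 2L. It was at 44.9% on 2R and 47.7% on 3R, against 43.3% for the arms as a whole. On 2R the replicates were higher there, at 59.5% in replicate 1 and 49.9% in replicate 2, and on 3R they were at 50.3% and 48.7%. On 3R other parts were higher, with 56.5% from 80% to 90% of the arm (59.6% in replicate 1 and 57.0% in replicate 2) and 52.5% from 40% to 50% (59.2% and 60.7%).

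A second dense zone lay in the inner portion of 2L. The parts from 20% to 30% and from 30% to 40% of the arm, counted from the centromere, had 71.9% and 79.0% of their bases in long gaps, more than the part next to the centromere, and both replicates gave the same picture (74.5% and 80.8% in replicate 1, 73.5% and 79.8% in replicate 2). The 2 longest gaps of the combined list lie in this zone. On 2R the most gapped part was the one from 70% to 80%, at 59.1% (64.8% in replicate 1 and 66.3% in replicate 2). In windows of 1 Mb, the last of an arm being shorter, 4 of 119 were over 80% gap. They were those from 24 and from 23 Mb on 3L, at 95.8% and 91.6%, and those from 15 and from 17 Mb on 2L, at 82.2% and 80.8%. No window was free of long gaps. The least gapped began at 8 Mb on 3L, at 8.34% (8.98% in both replicates).

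**Figure D2:**
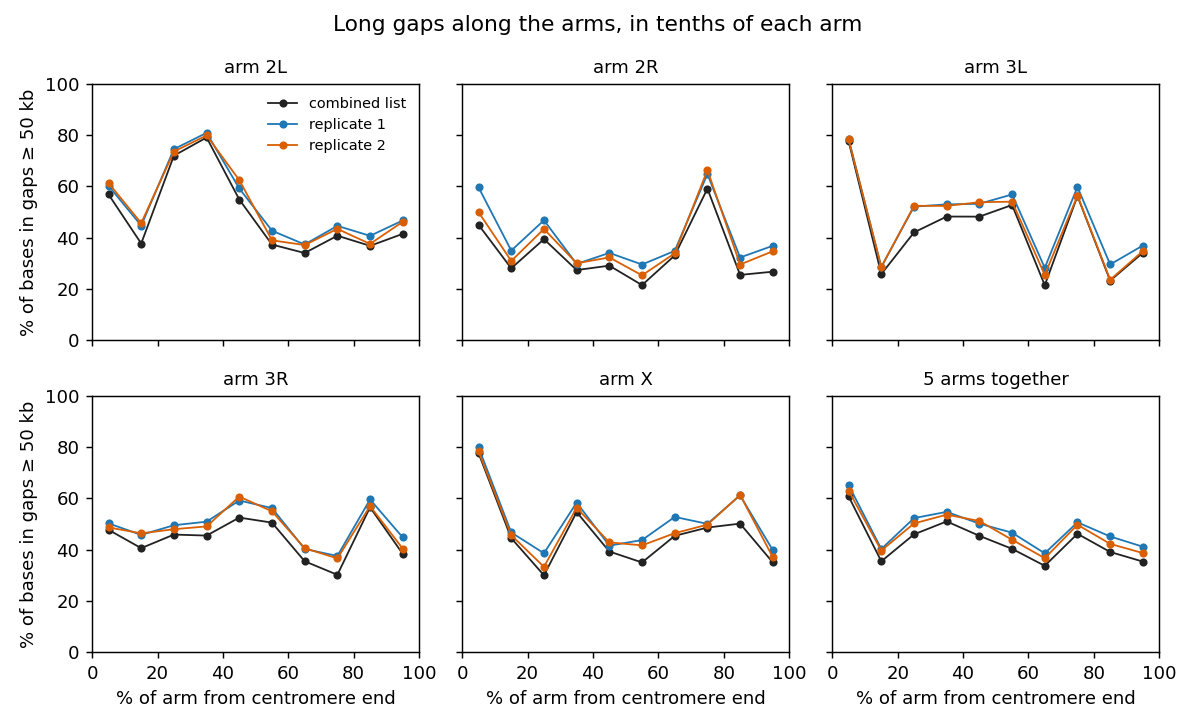
Share of bases in gaps of 50 kb or more (vertical, percent) in 10 equal parts of each arm, by distance from the centromere end as a percentage of arm length (horizontal), for the combined list and each replicate, with all 5 arms together in the last panel. On 3L and X the part next to the centromere stands at 77.6%, while on 2L the highest part is the one from 30% to 40%, at 79.0%.

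Some long gaps came one after another with little between them. Long gaps were 8.32% of all gaps, so some would be neighbours in any order, and grouping beyond this was not tested. With 20 kb or less between neighbours counted as 1 chain, 142 of the 454 gaps (31.3%) fell into 63 chains, of which 50 were pairs, 10 were triples and 3 had 4 gaps. The median chain spanned 213 kb, and 5 spanned 500 kb or more. On 2L, 41 of 98 gaps (41.8%) were in chains, and on 3L and on X 23 of 91 (25.3%) were.

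The longest chain ended close to the centromere end of 3L and was almost empty. It ran from 23334391 to 24530055, 1196 kb in all, with 99.0% of its bases in 4 gaps of 373, 311, 195 and 304 kb. Between them stood 5 regions with 11.6 kb in total, scoring 0.329 to 0.682. Only 2 of these 5 were called in both replicates. The next longest ran from 15118417 to 15728643 on 2L (610 kb, 4 gaps, 95.7% in gaps) and held 7 regions of 21.4 kb in total. The third, from 15560613 to 16129819 on 2R, was unlike these. Its 569 kb held 3 gaps and only 2 regions, 8.09 and 7.38 kb wide, both called in both replicates and with scores of 2.16 and 2.37. The region scoring 2.37 has the highest score of any that borders a long gap on 2R. On X a chain from 14152065 to 14686749 (535 kb) held regions of 2.86 and 1.18 kb, and one from 20396475 to 20900811 (504 kb) held a single region of 4.12 kb.

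Between consecutive long gaps lay 449 stretches that held regions. Their median length was 89.0 kb, with 8 regions in the median stretch, and regions covered 52.2% of all their bases. The longest, at 11362730 to 12314134 on 2R, was 951 kb with 73 regions and 49.6% covered, and 854 kb at 7782306 to 8636566 on 2L had 67 regions and 57.3% covered. At the other extreme, 49 stretches (10.9%) were a single region standing between 2 long gaps, while 8.32% of all gaps were long. These shares are close, so no grouping is read from the count. These 49 regions had a median width of 4.58 kb, from 1.09 to 68.0 kb, and a median score of 0.819. Of them, 41 were called in both replicates (70.6% of all major-arm regions were), 1 in 1 replicate and 7 in neither, or 14.3% (15.8% of all). The 7 were each 1.09 to 1.90 kb wide.

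The replicate lists were then read inside the 454 gaps. Almost no replicate region lay there. In 452 of 454 gaps (99.6%) no region of either replicate lay wholly inside. Over gaps of every length 0.183% held one. The median of those gaps was 2.55 kb, and a gap narrower than a region cannot hold it. The shares over every length are therefore given without a conclusion. For replicate 1 it was 1 of the 454 gaps that held a region, against 0.0733% of gaps of every length, and for replicate 2 also 1, against 0.11%. The exceptions were 2 neighbouring regions of replicate 1 in the gap at 7937033 to 8027747 on 2R and 1 region of replicate 2 in the gap at 12341341 to 12438629 on 3R. The pair was 1.32 kb each with scores of 0.578 and 0.503, and the single region was 1.35 kb with a score of 0.714. All 3 were among the narrowest of their lists, with 0.596%, 0.516% and 1.85% of regions at or below their widths. The combined list was made from the same 2 samples, so this is no independent check of the gaps.

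Contact at the edges was more frequent but small. Regions of replicate 1 reached into 74 gaps by at least 1 bp (17.2% of gaps of every length did so) and regions of replicate 2 into 84 (17.9%). All replicate bases in the 454 gaps came to 6.99 kb in replicate 1 and 4.87 kb in replicate 2, or 0.0136% and 0.00944% of the gap bases. The gaps with most replicate bases after the 2 just named were those at 7507175 to 7564753 on 3R, with 562 bp of replicate 1, and at 755167 to 826357 on 3L, with 377 bp of replicate 1. The fifth, at 14603545 to 14732003 on 3R, held 330 bp of replicate 2.

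Where a replicate had a region at the border, its edge fell close to that of the combined list. Such regions existed at 720 of the 908 gap edges in replicate 1 and at 743 in replicate 2. The replicate edge lay a median of 109 bp outside the gap in replicate 1 and 74 bp outside in replicate 2. It lay within 500 bp of the combined edge at 86.8% of these edges in replicate 1 and 90.6% in replicate 2.

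All 454 gaps corresponded to a gap of 50 kb or more in both replicates, against 12.6% of the combined list's gaps of every length and 4.66% of those under 50 kb. The rule used the length of these stretches and the lists share their samples, so nothing is read from that difference. Every one of the 454 also held a stretch of at least 50 kb free of regions from all 3 lists. The length in the replicate was within 5% of the combined one for 316 gaps in replicate 1, 342 in replicate 2 and 294 (64.8%) in both. For 41 gaps in replicate 1 and 28 in replicate 2 the replicate's stretch was more than 1.5 times as long. The largest difference was at 3637745 to 3702791 on 3R, where a gap of 65.0 kb in the combined list lay in a stretch of 368 kb in replicate 1 and 370 kb in replicate 2. It was chosen here for that difference, and neither of its bordering regions was called in either replicate.

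Some stretches that the combined list divides were unbroken in a replicate. In replicate 1, 13 pairs of neighbouring gaps were 1 unbroken gap. For 9 of these pairs the stretch was unbroken in replicate 2 as well, and for the other 4 replicate 2 called at least 1 of the regions between the gaps. The stretch at the centromere end of 3L shows it. The gaps at 24029513 to 24224589 (195 kb) and 24225769 to 24530055 (304 kb) are parted by 1 region of 1.18 kb scoring 0.350, and the replicates had unbroken stretches of 504 and 501 kb there, longer than any gap of the combined list. On X, gaps of 146 kb at 9676369 to 9822137 and 143 kb at 9823955 to 9967239 were parted by 1 region of 1.82 kb, while both replicates had 291 kb unbroken. Of the 494 long gaps of replicate 1, 205 held at least 1 region of the combined list, and of the 479 of replicate 2, 167 did. The share over replicate gaps of every length was not counted, so nothing particular to long gaps is read from this. The gaps of replicate 1 held 418 such regions, with a median width of 1.52 kb and a median score of 0.396 (highest 2.92). Of them, 144 were called in replicate 2 and 274 in neither. Those of replicate 2 held 301, with a median width of 1.44 kb and a median score of 0.376 (highest 3.22). Of them, 62 were called in replicate 1 and 239 in neither. Over all major-arm regions of the combined list the median score was 0.597, and 15.8% were called in neither replicate. A region inside a replicate's gap is absent from that replicate by definition, so a higher share in neither is built in. The median widths and scores come from the same choice, so nothing is read from them either. The score of 3.22 is the highest of all major-arm regions of the combined list. The widest of the regions inside the replicates' gaps were 7.96 kb (replicate 1) and 6.07 kb (replicate 2).

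**Figure D3:**
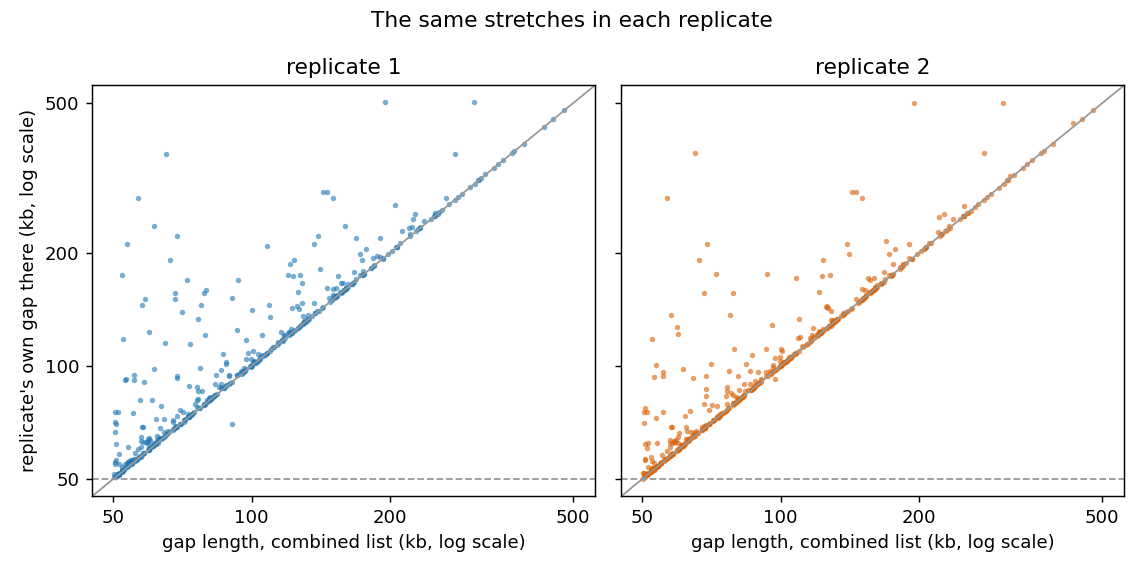
Length of the replicate's own gap (vertical, kb, log scale) against length of the gap in the combined list (horizontal, kb, log scale) for 454 gaps, with replicate 1 on the left and replicate 2 on the right, equal lengths as a solid line and 50 kb as a dashed line. Most points lie on the line, all lie above 50 kb, and points far above the line are gaps that lie in a longer unbroken stretch of the replicate.

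The regions at the borders of the gaps were next compared with the other regions. The 454 gaps had 859 bordering regions, 49 of which bordered 2 gaps. Their median width was 3.84 kb in the combined list, against 3.55 kb for the other 4605 major-arm regions, and their median score was 0.674, against 0.586. In replicate 2 the bordering regions of its own long gaps likewise had a median of 3.62 kb, against 3.40 kb for other regions. In replicate 1 the order was reversed, with 3.32 kb against 3.43 kb. The difference in width thus changed sign between the replicates. The median score was higher at the borders in both, at 0.792 against 0.773 in replicate 1 and 0.812 against 0.758 in replicate 2. In the combined list, regions at least 10 kb wide made up 17.6% of bordering regions (16.2% of all regions), and those under 2 kb made up 21.9% (24.7% of all regions). Replicate 2 had the same order, with 16.2% (14.4% of all) and 19.3% (20.9% of all). In replicate 1 both were reversed, with 12.4% (13.2% of all) and 21.2% (20.9% of all). No test was made of these differences, since regions are not samples.

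By length of the gap, the median width and score of the borders showed no steady course in the combined list. The median width of bordering regions was 3.81 kb for gaps of 50 to under 75 kb, 4.02 kb for 75 to under 100 kb, 4.08 kb for 100 to under 150 kb, 3.42 kb for 150 to under 200 kb, 3.96 kb for 200 to under 300 kb and 4.14 kb for 300 kb or more. Next to gaps of 25 to under 50 kb it was 3.93 kb. The median score ran between 0.656 and 0.741 over the same 6 classes and was 0.663 next to gaps of 25 to under 50 kb. Regions of 10 kb or more made up between 12.7% (gaps of 150 to under 200 kb) and 24.1% (300 kb or more) of the borders. Each list had 29 borders of gaps of 300 to under 500 kb, and replicate 1 put their median width at 3.21 kb against 4.82 kb for replicate 2. The centromere side and the far side of the gaps had median widths of 3.79 and 3.96 kb and median scores of 0.675 and 0.680. Of the 454 gaps, 15 had regions of 10 kb or more on both sides and 308 had none. Such regions were 16.5% of centromere-side borders, 18.9% of far-side borders and 16.2% of all major-arm regions. At such shares, few gaps would have them on both sides in any case. Within a gap the wider border was a median of 2.35 times as wide as the narrower, a ratio not computed for other neighbouring regions.

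**Figure D4:**
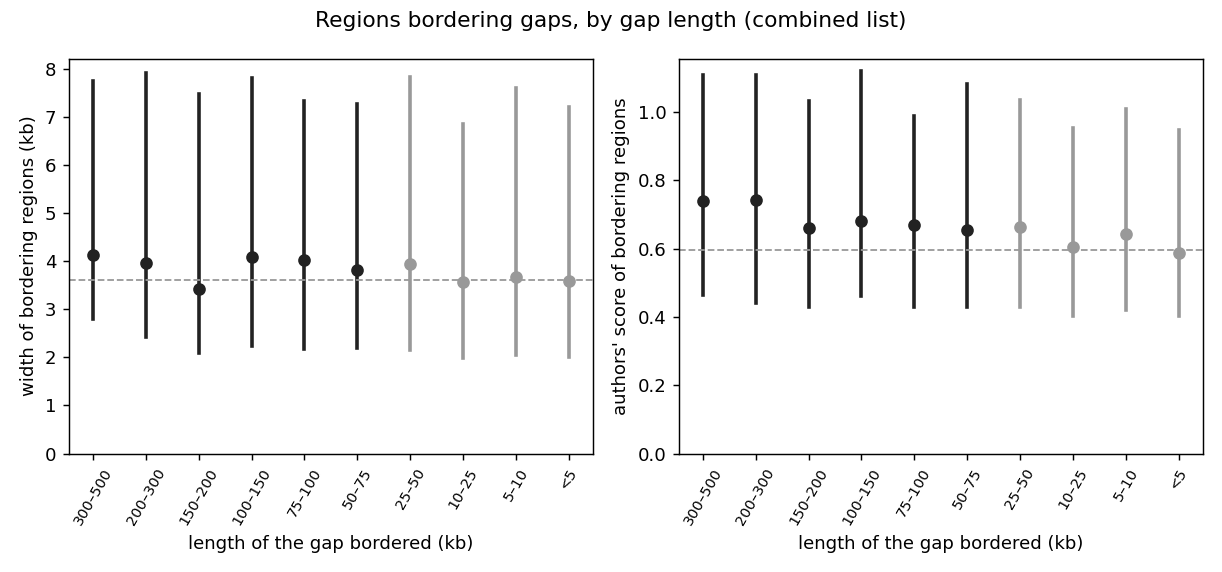
Width in kb (left) and the authors' score (right) of regions bordering gaps in the combined list, by length of the gap; points are medians and bars the middle 50%, black for gaps of 50 kb or more and grey for shorter ones, with the median of all major-arm regions dashed. Medians run from 3.42 to 4.14 kb and from 0.656 to 0.741 in the 6 black classes.

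Most borders were seen in both replicates, as were most regions of the major arms. Of the 859 bordering regions, 644 (74.97%) overlapped a region in both replicates (70.6% of all major-arm regions), 92 in 1 and 123 (14.3%) in neither (15.8% of all). For 258 gaps both borders were called in both replicates, for 120 at least 1 border was called in neither, and for 10 this held for both borders. Such counts were not made for shorter gaps, so nothing particular to long gaps is read from them. The longest gap of all is one of the 120. Its left border, 1.197 kb wide with a score of 0.320, was called in neither replicate.

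The borders included regions of high score and of great width. The highest score at a border was 2.49, at 16132500 to 16158110 on 3L, 25.6 kb wide, scoring 2.42 in replicate 1 and 2.54 in replicate 2, beside a gap of 61.5 kb. The highest on the other arms were 2.37 at 15998374 to 16005756 on 2R, 2.14 at 12813274 to 12823320 on 2L, 2.09 at 6761904 to 6774888 on X and 2.03 at 902518 to 913472 on 3R. The region on 2L stands between gaps of 68.8 and 151 kb. The broadest bordering regions were 114 kb at 22287804 to 22401488 on 3L, beside a gap of 306 kb, and 90.6 kb at 12097532 to 12188128 on X, beside one of 174 kb. On 2R the broadest was 88.0 kb at 13152712 to 13240758 and on 3R 74.9 kb at 10232928 to 10307872. On 2L it was 68.0 kb at 18319640 to 18387590, and this region stands alone between gaps of 161 and 54.0 kb.

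Outside the gaps, coverage by regions was high next to the gap and fell towards the mean of the arms over about 60 kb. In the first 10 kb outside the 908 edges, regions of the combined list covered 66.3% of bases, those of replicate 1 52.7% and those of replicate 2 56.3%. The rule places a region at every edge of the combined list, so its first value is built in. The replicate lists share the samples, so their first values are not independent of it. From 10 to 20 kb coverage was 44.8%, 36.7% and 39.3%, and from 20 to 30 kb 40.2%, 33.2% and 35.3%. From 60 to 70 kb it was 31.2%, 25.9% and 27.2%, against arm means of 29.4%, 24.4% and 25.7%. These means count the long gaps too, which are 43.3% of the arms in the combined list. Coverage above the means near the gaps is therefore partly built in, and the fall was not tested. Around the 48 gaps of 200 kb or more coverage from 90 to 100 kb outside was lower, at 24.7% (combined list), 18.3% (replicate 1) and 20.2% (replicate 2). This was the lowest outside bin of these gaps. From 30 to 40 kb outside they were higher, at 39.0% in the combined list, against 36.1% around all 454. In the first 10 kb inside the gaps, 0.0479% of bases were covered in replicate 1 and 0.0536% in replicate 2, and the combined list had none by definition. The replicate lists share their samples with the combined list, so these low values are no independent check of the edges.

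**Figure D5:**
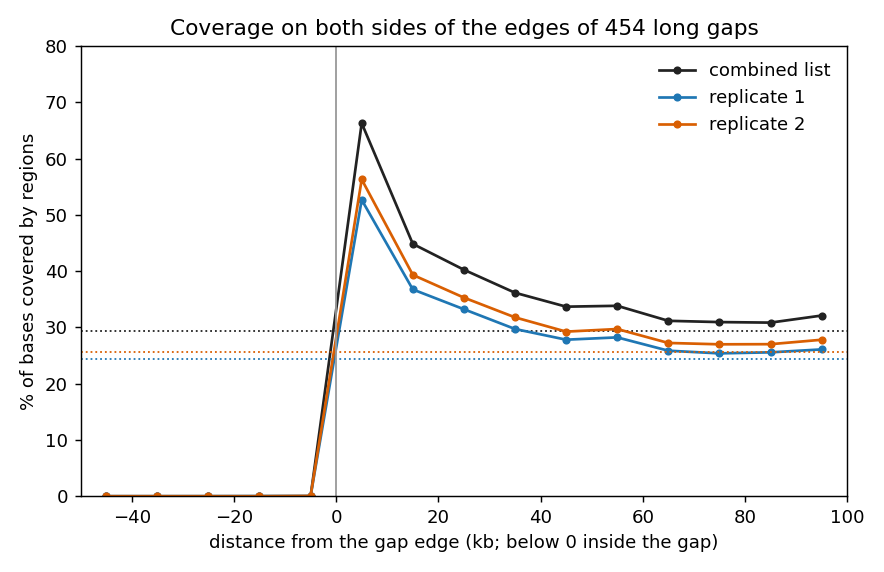
Share of bases covered by regions (vertical, percent) in bins of 10 kb by distance from the gap edge (horizontal, kb, below 0 inside the gap), summed over both edges of 454 gaps, for the combined list and each replicate; dotted lines are the arm means. Coverage outside starts at 66.3%, 52.7% and 56.3% and approaches the arm means, which include the long gaps, beyond 60 kb.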

How the data were processed

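The submitters' processing notes name Bowtie 0.12.7 as the aligner. The program that called the enriched regions, its thresholds, the use of the inputs and the way the combined list was made were not stated there or in the labels. Each deposited list gives a start, an end and 1 score per region, the score as the authors deposited it, with no unit stated. Scores were compared within a list only. Start and end are base positions on release 5 of the FlyBase genome, which the file headers name. The 1 region that the combined list calls depleted was left out. It lies in a gap of 19.9 kb on 3L.

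Gaps were found with Python 3.11.15 and numpy 2.4.6 and drawn with matplotlib 3.10.9. In 3 places of the combined list neighbouring regions overlap and leave no gap. A region was matched between lists at an overlap of 1 bp. A replicate region counted as inside a gap when it lay wholly within it, and the replicate's own gap was the one with most shared bases. The gap finder was tested on simulated lists and found all 7984 gaps made. The named gaps were the 10 longest, the longest per arm, the 3 on either side of 50 kb, the 5 with most replicate bases, the 5 longest chains, and the highest scoring and widest border per arm. Members, lists and rules were chosen with earlier results of these data known. No test was made, since gaps and regions are not samples. Sequences are not shown, as no genome of release 5 was at hand.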

Additional observations from a re-analysis of the deposited data

How the results depend on the processing

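The number of gaps of 50 kb or more stayed within 1.5 times the reported 454, between 468 and 567, under 6 alternatives, and was 278 with a minimum of 75 kb. The bases in gaps moved by more than the spread between replicates under all 7 alternatives. They were 51.6 Mb as reported, 65.97 Mb with the upper 50% of scores, 54.5 Mb with regions found in at least 1 replicate, 56.3 Mb with regions of 2 kb or wider, 56.7 Mb with a minimum of 40 kb and 41.0 Mb with one of 75 kb. The median length was 97.2, 90.6, 90.7, 73.5 and 127 kb under the same 5 settings. Without 1 replicate, the bases were 55.8 to 57.7 Mb, the median length 90.7 to 91.8 kb, the median width of bordering regions 3.32 to 3.62 kb and the share of gap bases in the fifth of each arm next to the centromere 21.7% to 21.9%. As reported this share was 22.2%, for 20% of the arm bases, and the next part of the same size held 22.4%. The 2 Mb next to the centromere end held 12.03%, for 8.40% of the arm bases. Bordering regions found in at least 1 replicate had a median width of 4.51 kb. Fewer regions leave fewer divisions, by construction, and the causes of the other moves were not tested. Gaps in chains numbered 247 with up to 50 kb between them and 97 with up to 10 kb. The chain counts in each replicate, 170 and 162, and with regions found in at least 1 replicate, 155, were chosen after the data were seen. Gaps of 100 kb or more numbered 207 to 262 under the alternatives run, against 197 as reported. Counting any overlap of 1 bp left 303 gaps free of replicate regions, against 452. No paired analysis was possible because inputs and ChIP samples share numbers but only ChIP samples were analysed. Depth is not known, so a gap cannot be told apart from a stretch with too few reads.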
